A study of Mus musculus with 30 samples.

Results

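The results below describe 10 genes for amino-acid transporters of the plasma membrane, Slc1a4, Slc1a5, Slc3a2, Slc7a5, Slc7a11, Slc7a1, Slc7a3, Slc38a1, Slc38a2 and Slc6a9, out of 57186 genes in the deposited count table. They are the rows whose Ensembl identifier, with its version suffix removed, pairs with these symbols, and all 10 were found. The members were chosen by their levels and changes against 0 h in these same libraries, which were already known, so the values of its members are given as a description, with counts of calls set beside the share of all genes called and with no p-value for a member. RNA was sequenced from 2 mouse cell lines, NIH/3T3, which the labels call a fibroblast line, and CGR8, which they call an embryonic stem cell line. Both lines carried the same ROSA26 SLT knock-in, and no line without it was included. Each was collected at 0, 1, 2, 5 and 48 h of cycloheximide (CHX) at 0.1 µg/mL, in replicates A, B and C, which gives 30 libraries in 10 groups of 3. NIH/3T3 cells were grown in DMEM with fetal bovine serum and CGR8 cells in N2B27 medium with 2i and LIF, so line and medium cannot be told apart. The labels do not say whether replicates are separate cultures or whether a line is 1 clone, so the p-values measure the spread between these samples, which may be technical.

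Cycloheximide blocks the elongation step of translation, and amino acids are the substrate of that step. Cells take amino acids up through families of carriers. Exchangers trade one amino acid for another, sodium-coupled carriers concentrate them, and heteromeric transporters pair the glycoprotein heavy chain SLC3A2 with a light chain that does the transport. Shortage of amino acids is sensed by the kinase GCN2, which raises translation of the transcription factor ATF4, and many transporter genes, several of these 10 among them, are known targets of ATF4. SLC7A11, the light chain of the cystine and glutamate exchanger, is also a known target of the oxidative-stress factor NRF2.

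Library totals ran from 18.2 to 30.5 M counts (mega-counts), with a median of 24.3 M. Levels are CPM, counts per mega-count of the library's total after scaling with TMM factors over all 30 libraries. The differences are log2 fold changes fitted to counts with edgeR's quasi-likelihood model, with a standard error (SE), from all 15 libraries of a line. The SE was derived from the test, as the size of the change over the square root of its F statistic. A gene was called at a Benjamini-Hochberg adjusted p under 0.05. The markers of each line were checked: the 6 stem-cell markers ranged from 373 to 2080 CPM in CGR8 and did not exceed 0.377 CPM in NIH/3T3. Of the 6 fibroblast markers, Col1a1, Col1a2, Col3a1 and Lox lay between 219 and 4870 CPM in NIH/3T3 and at no more than 0.719 CPM in CGR8, whereas Thy1, at most 0.0914 CPM, and Postn, at most 0.993 CPM, were near 0 in NIH/3T3. All comparisons with 0 h in a line share the same 3 untreated libraries.

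Before treatment, 6 of the 10 transporters were called different between the lines, 1 higher and 5 lower in CGR8, beside 79.1% of all genes tested. Per kilobase of exon, Slc7a5, the light chain for large neutral amino acids, had the highest level of the 10 in both lines, at 110 ± 9.57 CPM per kb (SD, n = 3) in NIH/3T3 and 132 ± 16.1 in CGR8. Its heavy chain Slc3a2 came next in both, at 74.2 ± 6.51 CPM per kb in NIH/3T3 and 77.3 ± 7.42 in CGR8. The order then parted. In NIH/3T3 it went on with Slc38a2 at 51.5, Slc7a1 at 31.4, Slc1a5 at 25.7, Slc1a4 at 22.8, Slc38a1 at 8.67, Slc6a9 at 3.34, Slc7a11 at 2.08 and Slc7a3 at 0.248 CPM per kb, and the only neighbours whose libraries overlapped were Slc1a5 and Slc1a4. In CGR8 the third place was held by Slc7a3 at 65.0, followed by Slc38a2 at 30.6, Slc1a5 at 21.5, Slc7a1 at 17.2, Slc38a1 at 8.79, Slc1a4 at 4.75, Slc7a11 at 0.670 and Slc6a9 at 0.634 CPM per kb, and only Slc7a11 and Slc6a9 overlapped.

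Most of the transporter transcripts were lower by 5 h of cycloheximide, in both lines. Slc3a2 was the member called higher, at 2 h in both lines and at 5 h in NIH/3T3, while Slc3a2, Slc7a11 and Slc7a3 were not called in CGR8 at 5 h. At 1 h none of the 10 was called in either line, beside 0.732% of genes in NIH/3T3 and 0.270% in CGR8. At an unadjusted p under 0.05 it was 1 member in NIH/3T3 and 3 in CGR8, and DESeq2 called 1 and 0 after adjustment. At 2 h, 7 were called in NIH/3T3, 1 higher and 6 lower, beside 35.0% of all genes, and 7 in CGR8, also 1 higher and 6 lower, beside 19.9%. At 5 h all 10 were called in NIH/3T3, 9 of them lower, beside 51.0%, and 7 in CGR8, all lower, beside 52.1%. At 48 h, 7 were called in NIH/3T3, 1 higher and 6 lower, beside 52.3%, and 7 in CGR8, 1 higher and 6 lower, beside 27.8%. At 5 h the median log2 fold change of the 10 was -0.97 in NIH/3T3 and -1.21 in CGR8, where the median of all genes tested was -0.01 in both. The 48 h medians of the 10 were -0.30 (NIH/3T3) and -0.73 (CGR8). Nothing about the set is read from these counts, since the same changes entered its choice. One library touched every member: at 1 h, NIH/3T3 replicate C had the lowest of the 3 values for all 10 genes, and without it 1 member was called at 1 h. Without CGR8 replicate C at 2 h, 4 members were called at that time.

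**Figure D1:**
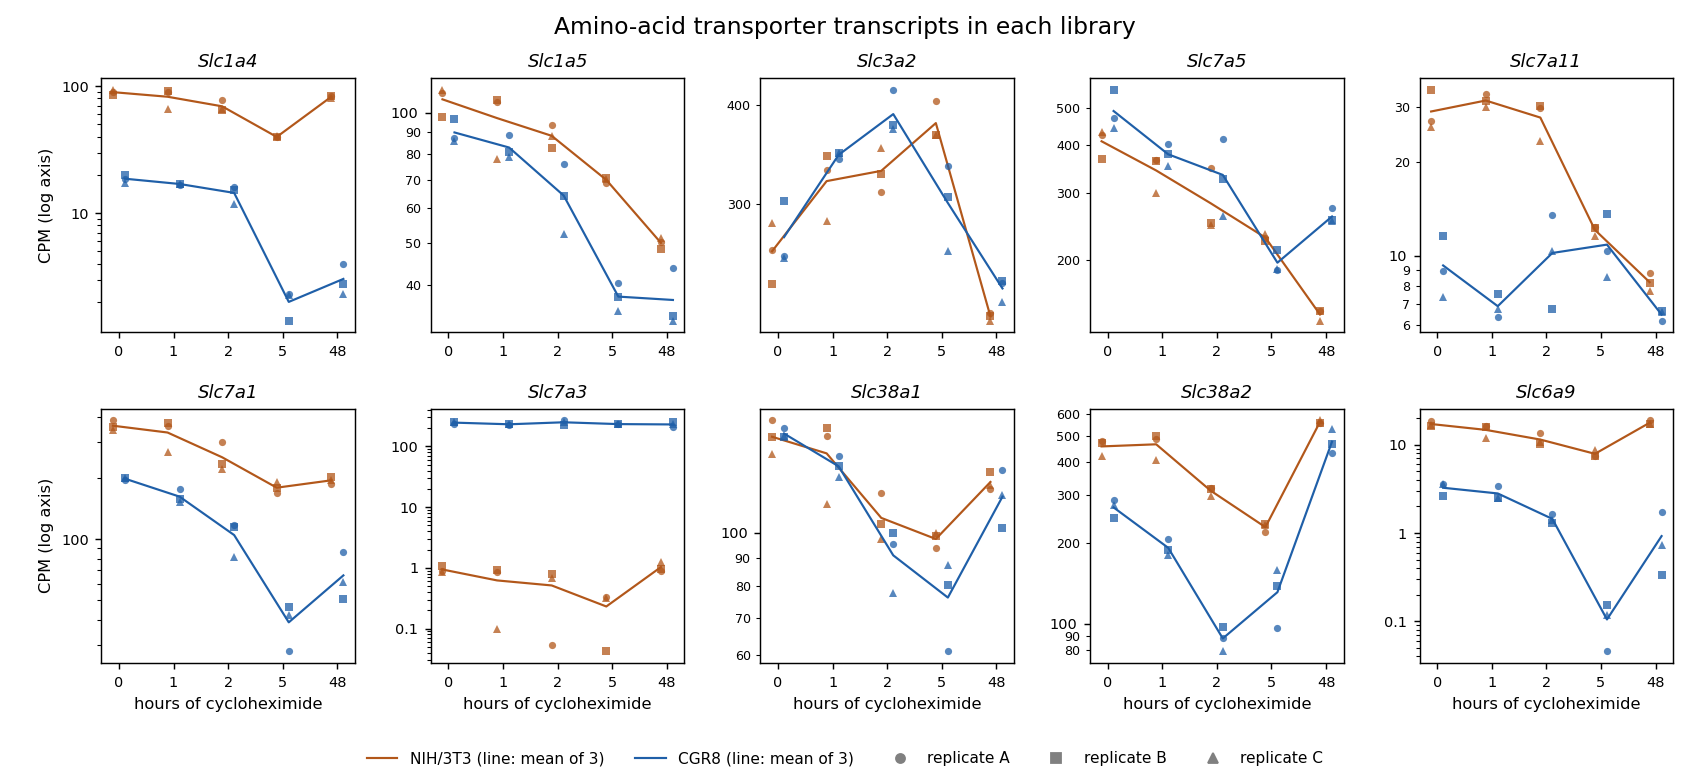
Level of each of the 10 transporter transcripts in CPM (log axis, its range set for each gene) against hours of cycloheximide, with 1 point for each of the 30 libraries and lines through the mean of 3. Slc3a2 bends upward before 48 h, Slc38a2 dips and ends above its start, and Slc7a3 in CGR8 stays flat at between 208 and 270 CPM.

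The neutral amino-acid exchangers come first. Slc1a4 encodes ASCT1, a sodium-dependent exchanger of alanine, serine and cysteine. In CGR8, Slc1a4 stood at 18.5, 20.1 and 17.4 CPM at 0 h, at 16.7, 17.1 and 17.1 at 1 h and at 16.2, 15.3 and 11.8 at 2 h. It then stood at 2.32, 1.42 and 2.26 CPM at 5 h and at 4.01, 2.79 and 2.30 at 48 h. Every library at 5 h and 48 h was far below every earlier library, by -3.26 ± 0.21 (log2, SE) at 5 h, which is 9.57-fold, and by -2.63 ± 0.20 at 48 h. NIH/3T3 libraries held 89.2, 85.9 and 94.0 CPM at 0 h, 39.5, 39.7 and 40.3 at 5 h, and 83.3, 83.5 and 81.0 at 48 h. There the change was -1.13 ± 0.11 at 5 h and -0.15 ± 0.11 at 48 h, so Slc1a4 was back near its untreated level in NIH/3T3 at a time when it was 6.18-fold lower in CGR8. The line difference in the change, CGR8 minus NIH/3T3, was -2.03 ± 0.23 at 5 h and -2.50 ± 0.21 at 48 h.

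Slc1a5 encodes ASCT2, the main exchanger for glutamine in many dividing cells. Its CGR8 libraries read 87.4, 96.5 and 85.9 CPM at 0 h, 40.4, 37.4 and 34.8 at 5 h, and 43.7, 33.9 and 33.0 at 48 h. NIH/3T3 had 111, 97.8 and 113 CPM at 0 h, 68.6, 70.7 and 70.3 at 5 h, and 50.2, 48.3 and 51.4 at 48 h. In both lines the treated libraries at 5 h and 48 h lay below all untreated ones. In CGR8 the low level was reached by 5 h, with changes of -1.31 ± 0.14 and -1.30 ± 0.14 at 5 h and 48 h, whereas in NIH/3T3 it was still going down between those times, from -0.58 ± 0.10 to -1.13 ± 0.11. Unlike Slc1a4, Slc1a5 did not return in NIH/3T3.

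Among the heteromeric transporters, the heavy chain Slc3a2 was called higher and the light chain Slc7a5 lower at 2 h in both lines. At 48 h in NIH/3T3 Slc3a2, Slc7a5 and Slc7a11 were all called lower, and at 5 h in CGR8 neither Slc3a2 nor Slc7a11 was called. Slc3a2, the heavy chain that carries SLC7A5, SLC7A11 and other light chains to the membrane, had 263, 238 and 284 CPM at 0 h in NIH/3T3, then 331, 345 and 286 at 1 h and 311, 327 and 353 at 2 h. At 5 h it had 404, 367 and 367 CPM, and at 48 h 219, 217 and 214. Every library at 1, 2 and 5 h was above every untreated one and every library at 48 h below, with log2 changes of 0.32 ± 0.09, 0.37 ± 0.09, 0.57 ± 0.09 and -0.30 ± 0.09 in turn, the last not called with library size alone (-0.22). The CGR8 libraries had 258, 303 and 257 CPM at 0 h, 342, 348 and 348 at 1 h and 418, 377 and 373 at 2 h. They were at 335, 306 and 262 CPM at 5 h, overlapping the untreated libraries, and at 239, 240 and 226 at 48 h. The highest mean came at 2 h in CGR8 (0.49 ± 0.10) and at 5 h in NIH/3T3 (0.57 ± 0.09), while the CGR8 change at 5 h was 0.09 ± 0.10. The line difference at 5 h, -0.39 ± 0.13, was not called with TMM scaling but was called at -0.47 with RLE scaling and at -0.58 with library size alone.

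The light chain Slc7a5 (LAT1), which imports leucine and other large neutral amino acids, was lower at both late times. NIH/3T3 libraries had 425, 368 and 432 CPM at 0 h, 229, 224 and 234 at 5 h, and 147, 147 and 139 at 48 h. CGR8 libraries had 469, 557 and 443 CPM at 0 h, 188, 213 and 190 at 5 h, and 273, 254 and 253 at 48 h. No treated library at either time reached the lowest untreated one of its line. The lines crossed over: the change was -0.80 ± 0.12 at 5 h and -1.53 ± 0.12 at 48 h in NIH/3T3, against -1.37 ± 0.14 and -0.92 ± 0.14 in CGR8. The line difference was -0.48 ± 0.19 at 5 h, called only with library size alone (-0.67) among the 3 scalings, and 0.59 ± 0.19 at 48 h.

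Slc7a11, the light chain that takes up cystine in exchange for glutamate, was lower in NIH/3T3 at 5 h but not in CGR8. It had 26.9, 34.0 and 25.9 CPM at 0 h in NIH/3T3, 12.4, 12.3 and 11.6 at 5 h, and 8.79, 8.20 and 7.73 at 48 h. That is -1.22 ± 0.12 and -1.84 ± 0.13, with no overlap of the groups. In CGR8 the values were 8.94, 11.6 and 7.41 CPM at 0 h, 10.4, 13.6 and 8.58 at 5 h, and 6.20, 6.65 and 6.62 at 48 h. The CGR8 groups at 0 h and 5 h overlapped (0.16 ± 0.22), and the 48 h libraries lay just under the untreated ones (-0.53 ± 0.22, not called). The line difference was 1.47 ± 0.26 at 5 h and 1.29 ± 0.26 at 48 h.

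Cationic amino acids such as arginine and lysine enter through Slc7a1 (CAT1), the widely expressed carrier, and Slc7a3 (CAT3), a relative with a narrower range of tissues. Slc7a1 had 196, 200 and 200 CPM in CGR8 at 0 h, 177, 157 and 152 at 1 h and 117, 115 and 82.0 at 2 h. It then had 27.9, 46.4 and 42.2 CPM at 5 h and 86.5, 50.9 and 61.2 at 48 h. Each of these groups lay below the untreated libraries, and the mean went down step by step to 5 h, where the change was -2.41 ± 0.21, or 5.31-fold. NIH/3T3 had 386, 358 and 344 CPM of Slc7a1 at 0 h, 169, 178 and 191 at 5 h and 187, 203 and 195 at 48 h, a change of -0.98 ± 0.13 and then -0.92 ± 0.13. The NIH/3T3 level was thus about as low at 48 h as at 5 h. The line difference for Slc7a1 was -1.34 ± 0.24 at 5 h and -0.69 ± 0.24 at 48 h.

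Slc7a3 was at 233, 255 and 251 CPM in untreated CGR8 cells and at 0.902, 1.07 and 0.841 CPM in untreated NIH/3T3 cells, a difference of 8.03 ± 0.28 (log2). In CGR8 it was the flattest member: 233 CPM in all 3 libraries at 5 h (-0.13 ± 0.09), and 208, 249 and 233 CPM at 48 h (-0.11 ± 0.09), with overlap at every time. With library size alone its change at 5 h was -0.24 and was called, where the median of all genes also sat lower, at -0.12. CGR8 cells at 5 h therefore held Slc7a3 at its untreated level beside Slc7a1 at 5.31-fold below its own. In NIH/3T3 the reads were too few for a fold change to say much. Its untreated libraries had 18 to 25 reads each and the 5 h libraries 1 to 8, which pools to a ratio 4.07-fold lower with an exact 95% interval of 2.34 to 7.52 that covers counting error only. Replicate C at 1 h had 2 reads and replicate A at 2 h had 1, while the other 2 replicates of each of those times had 16 to 24. Replicate B at 5 h had 1 read, beside 8 and 7. The 6 stem-cell markers together gave 0 to 13 reads in the NIH/3T3 libraries, and those sums were 6, 8 and 13 in these low libraries. The call for a line difference in Slc7a3 at 5 h (1.92 ± 0.54) rests on these few NIH/3T3 reads.

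The sodium-coupled neutral carriers Slc38a1 (SNAT1) and Slc38a2 (SNAT2) concentrate glutamine, alanine and serine, and Slc38a2 is the member best known for induction when amino acids run short. Slc38a2 had 478, 470 and 419 CPM in NIH/3T3 at 0 h, 320, 318 and 298 at 2 h and 219, 234 and 233 at 5 h. At 48 h it had 558, 558 and 570 CPM, above every untreated library. The changes were -0.51 ± 0.09 at 2 h, -0.96 ± 0.09 at 5 h and 0.27 ± 0.09 at 48 h. In CGR8 the values were 289, 247 and 276 CPM at 0 h, 207, 188 and 180 at 1 h and 88.6, 97.5 and 79.1 at 2 h. They went on as 96.6, 138 and 159 CPM at 5 h and 431, 465 and 528 at 48 h. The CGR8 dip came earlier, at -1.63 ± 0.16 by 2 h and -1.10 ± 0.16 at 5 h, and the libraries at 48 h were again above every untreated one (0.80 ± 0.15). Slc38a2 was the only member called higher than untreated at 48 h, and it was so in both lines. Its line difference was -1.07 ± 0.18 at 2 h, -0.05 ± 0.18 at 5 h and 0.51 ± 0.17 at 48 h, the last not called with library size alone (0.42).

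Slc38a1 also dipped, at 5 h by less than Slc38a2 in NIH/3T3 and by about as much in CGR8. It had 160, 149 and 139 CPM in NIH/3T3 at 0 h, 93.9, 98.6 and 100 at 5 h and 120, 129 and 122 at 48 h, with changes of -0.58 ± 0.11 and -0.30 ± 0.11. CGR8 had 155, 149 and 150 CPM at 0 h, 61.0, 80.6 and 87.5 at 5 h and 130, 102 and 117 at 48 h, with changes of -1.04 ± 0.14 and -0.39 ± 0.14. In both lines the 48 h libraries lay between the 5 h and the untreated ones without overlap, and with library size alone the 48 h change was not called in either. No line difference was called for Slc38a1.

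Slc6a9 encodes GlyT1, a sodium- and chloride-coupled glycine carrier. In NIH/3T3 it had 18.4, 16.5 and 16.7 CPM at 0 h, 7.47, 7.42 and 8.82 at 5 h and 19.0, 17.1 and 17.2 at 48 h. All libraries at 5 h were below, and those at 48 h overlapped the untreated ones (-1.09 ± 0.14 and 0.02 ± 0.13). In CGR8 it was scarce: 3.62, 2.60 and 3.56 CPM at 0 h, 1.63, 1.31 and 1.40 at 2 h, 0.0455, 0.152 and 0.117 at 5 h, and 1.71, 0.334 and 0.726 at 48 h. The 5 h libraries held 1 to 3 reads each, 7 in all, against 267 at 0 h, which is 31.6-fold lower with an exact 95% interval of 15.1 to 79.4 for counting error only. At 48 h there were 74 reads, 3.51-fold lower than untreated (2.71 to 4.61), spread unevenly with 9 to 47 a library. The fitted change at 48 h was -1.82 ± 0.36, and -2.63 without replicate A. Slc6a9 counts are uncertain in one respect. In the GENCODE M21 annotation 1429 of its exon bases are also exon of Ccdc24 on the opposite strand, 511 of Gm17114 and 46 of B4galt2, and whether the counting used strand is not given in the sources used here. Ccdc24 moved alongside Slc6a9 in NIH/3T3, at 23.7, 16.7 and 18.6 CPM at 0 h, 11.1, 10.4 and 10.8 at 5 h and 17.6, 16.2 and 19.1 at 48 h. It never exceeded 0.630 CPM in CGR8. The part of such reads in the Slc6a9 values was not tested.

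Between 5 h and 48 h, 9 members were called in NIH/3T3, 5 higher and 4 lower at 48 h, beside 65.6% of genes, and 8 in CGR8, 6 higher and 2 lower, beside 57.5%. Slc1a4, Slc38a1, Slc38a2 and Slc6a9 were higher at 48 h than at 5 h in both lines, with Slc38a2 at 1.24 ± 0.09 in NIH/3T3 and 1.90 ± 0.16 in CGR8. The Slc1a4 libraries of these times nevertheless overlapped in CGR8 (0.63 ± 0.22). Slc7a5 parted by line, lower again in NIH/3T3 (-0.73 ± 0.12) and higher in CGR8 (0.45 ± 0.14). Slc3a2 and Slc7a11 were lower at 48 h in both.

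The change itself was called different between the lines for 0 members at 1 h (2 at an unadjusted p under 0.05 and 0 with DESeq2), beside 0.160% of all genes, for 1 at 2 h, beside 2.02%, for 6 at 5 h, beside 13.3%, and for 6 at 48 h, beside 21.9%. The member at 2 h was Slc38a2. At 5 h Slc1a4, Slc1a5, Slc7a1 and Slc6a9 were lower in CGR8 and Slc7a11 and Slc7a3 relatively higher. At 48 h Slc1a4, Slc7a1 and Slc6a9 were lower and Slc7a5, Slc7a11 and Slc38a2 higher. Over all genes called at 5 h, 61.6% were relatively higher in CGR8 with TMM scaling, 45.9% with RLE scaling and 31.5% with library size alone, and the 6 members called at 5 h kept their direction under all of these.

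Promoter letters were read for the members because ATF4 and NRF2 bind known DNA elements. The RefSeq table (GRCm38.p6) gives windows of 250 bases before and 50 after a start site, and 6 members had an entry, with 9 windows. The others, not printed here, are Slc1a5, Slc7a5, Slc7a3 and Slc38a1. The composite element of ATF4 and C/EBP, searched as TGATGNAA on both strands, was in 3.97% of 32851 windows of this length and in 2 of the 9 member windows. Slc7a11 had 2 copies, 66 to 59 and 47 to 40 bases before its start, an arrangement of several copies found in 0.07% of all windows, and Slc1a4 had 1 copy across its start. The stretches with the element in capitals are shown 5′ to 3′ on the gene's strand for the members that held it. They are Slc7a11 at chr3:50443628-50443704 (minus strand) and Slc1a4 at chr11:20332702-20332742 (minus strand). With them stand Chac1 (chr2:119351024-119351081, plus strand), Asns (chr6:7693200-7693257, minus strand) and Pycr1 (chr11:120643819-120643876, minus strand), picked from the non-transporter targets of ATF4 that hold the same element. In the list of those targets 6 of 27 windows (22.22%) held it, and Trib3, Nupr1 and Vldlr, which also did, are not printed.
Slc7a11: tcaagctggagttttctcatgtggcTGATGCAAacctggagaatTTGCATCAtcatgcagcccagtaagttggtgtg
Slc1a4: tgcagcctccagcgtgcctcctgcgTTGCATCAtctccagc
Chac1: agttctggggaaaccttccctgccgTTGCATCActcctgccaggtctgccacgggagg
Asns: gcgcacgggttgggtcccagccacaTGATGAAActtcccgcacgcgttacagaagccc
Pycr1: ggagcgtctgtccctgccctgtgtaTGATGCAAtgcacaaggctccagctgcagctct
Slc7a11, Slc1a4, Chac1 and Pycr1 carry the same 8 letters on the shown strand or its complement. At 5 h in CGR8 the log2 changes of the transcripts were -4.79 for Chac1, -3.26 for Slc1a4, -0.69 for Pycr1, 0.09 for Asns and 0.16 for Slc7a11. Trib3, not printed, was at -2.92 there, and the changes of Nupr1 and Vldlr are not given here for either line. At 5 h in NIH/3T3 they were -0.54 for Chac1, -1.13 for Slc1a4, -1.22 for Slc7a11 and -1.94 for Trib3, and those of Pycr1 and Asns are not given here. The part of the element in these changes was not tested. The antioxidant response element, searched as TGACNNNGC, was in 12.39% of all windows and in 4 member windows, 2 of Slc6a9 and 1 each of Slc7a1 and Slc38a2, and these letters were not in the Slc7a11 window. The E-box CACGTG was in 7.15% of all windows and in 0 of the 9. A match is a run of letters, not a measured binding site.

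The next comparisons take genes outside the 10, in lists written by function, to set the transporters beside the rest of amino-acid handling. Over all genes tested at 5 h, 24.0% were called higher and 27.1% lower in NIH/3T3, and 24.9% higher and 27.2% lower in CGR8. At 48 h those shares were 26.7% and 25.6% in NIH/3T3, and 12.2% and 15.6% in CGR8. The list of ATF4 and its non-transporter targets holds enzymes of serine, proline and asparagine synthesis, transfer-RNA synthetases and stress factors. At 5 h, 19 of 27 tested genes changed in NIH/3T3, 3 higher and 16 lower, with a median of -0.37, and 20 of 29 in CGR8, 2 higher and 18 lower, with a median of -0.69. At 48 h, 23 changed in NIH/3T3, 5 higher and 18 lower, and 22 in CGR8, 1 higher and 21 lower. Among genes averaging 5 CPM or more in the higher group, the largest falls at 5 h in CGR8 were Chac1, a glutathione-degrading enzyme, from 11.3 to 0.433 CPM (-4.79 ± 0.39, adjusted p = 3.86e-07, edgeR), and Trib3, a pseudokinase that restrains the stress response, from 39.8 to 5.48 CPM (-2.92 ± 0.29). Mthfd2, a mitochondrial folate enzyme, fell from 116 to 45.3 CPM there. In NIH/3T3 Trib3 fell by -1.94 ± 0.17, Ppp1r15a, which encodes a phosphatase subunit that reverses the GCN2 signal, by -1.52 ± 0.15, and Sesn2, a leucine sensor, by -1.38 ± 0.12. Asns, the asparagine synthetase, is named outside the rule for the largest changes. In CGR8 it was not called at 5 h, at 0.09 ± 0.13 (adjusted p = 0.579, edgeR), and was at -0.80 ± 0.13 at 48 h. Of the 29 list genes tested in CGR8, 6 had a change above 0 at 5 h.

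The Atf4 transcript, singled out after its values were seen, moved in opposite directions in the lines at 2 h and 5 h. NIH/3T3 had 413, 419 and 458 CPM at 0 h, 514, 684 and 720 at 2 h, 729, 671 and 654 at 5 h and 368, 362 and 340 at 48 h. It rose by 0.60 ± 0.10 at 2 h (adjusted p = 0.000579, edgeR) and by 0.71 ± 0.10 at 5 h (adjusted p = 4.38e-05). CGR8 had 146, 134 and 141 CPM at 0 h, 77.6, 84.5 and 81.6 at 1 h, 61.4, 64.1 and 70.5 at 2 h, 88.6, 57.4 and 62.0 at 5 h and 93.0, 88.0 and 75.2 at 48 h. There Atf4 was already called lower at 1 h (-0.79), and was lower by -1.13 ± 0.14 at 2 h and -1.07 ± 0.14 at 5 h (adjusted p = 1.43e-05, edgeR). The NIH/3T3 change at 1 h was 0.19 and not called. The line difference at 1 h, -0.95, was called with TMM and RLE scaling and with library size alone. The difference between the lines was tested and was -1.69 ± 0.18 at 5 h (adjusted p = 2.34e-07, edgeR), and -1.77 with RLE scaling and -1.89 with library size alone. At 48 h Atf4 was lower in both lines. The NIH/3T3 change, -0.30 ± 0.10, was not called with library size alone (-0.22), and the CGR8 change was -0.73 ± 0.13. The 48 h line difference was -0.45 ± 0.18 with TMM scaling and -0.44 with RLE scaling, neither of them called. With library size alone that difference was -0.53 and was called. ATF4 is controlled largely at translation, which these libraries do not measure, so its protein level is unknown here.

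**Figure D2:**
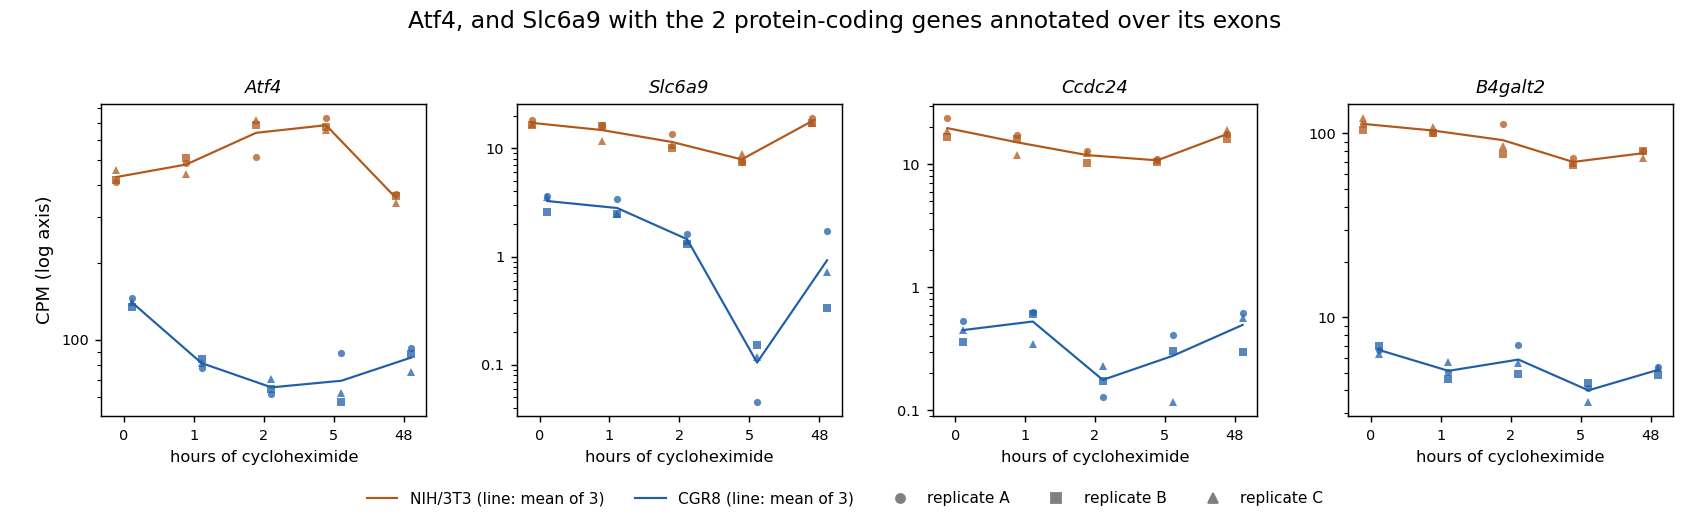
CPM (log axis) of Atf4, Slc6a9 and the 2 protein-coding genes annotated over Slc6a9 exons, Ccdc24 and B4galt2, against hours of cycloheximide, with a point for each library and lines through the mean of 3. Atf4 at 2 h and 5 h is above its start in NIH/3T3 and below it in CGR8, and at 48 h it is below in both, and Ccdc24 tracks Slc6a9 in NIH/3T3 while staying at or under 0.630 CPM in CGR8.

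Other plasma-membrane amino-acid transporters were 35 genes, of which 13 were tested in NIH/3T3 and 21 in CGR8. Their medians at 5 h were nearer to 0 than those of the 10, a contrast that the choice of members helps to set. They were -0.17 in NIH/3T3, with 0 higher and 4 lower, and -0.30 in CGR8, with 3 higher and 6 lower. In all, 4 were called in NIH/3T3, beside 51.0% of all genes, and 9 in CGR8, beside 52.1%. At 48 h, 3 were higher and 6 lower in NIH/3T3, and 2 higher and 7 lower in CGR8. In NIH/3T3 at 5 h Slc16a10, an aromatic amino-acid carrier, fell from 36.7 to 18.1 CPM (-0.99 ± 0.11, adjusted p = 2.1e-06, edgeR), Slc38a10 from 172 to 97.9 CPM, and Slc7a2, a cationic carrier related to Slc7a1, from 24.1 to 16.3 CPM. In CGR8 Slc6a6, the taurine carrier, fell from 281 to 96.5 CPM (-1.60 ± 0.14) and was back at 48 h (0.19 ± 0.14, adjusted p = 0.343, edgeR). Slc43a1, a carrier of branched-chain amino acids, rose from 7.48 to 11.6 CPM in CGR8 (0.59 ± 0.14, adjusted p = 0.00249, edgeR).

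Many lysosomal amino-acid and peptide transporters move the products of protein breakdown into the cytosol. At 5 h, 7 of 9 tested changed in NIH/3T3, all lower (median -0.53), and 7 of 8 in CGR8, 1 higher and 6 lower (median -0.77). At 48 h, 4 were higher and 3 lower in NIH/3T3, and 2 higher and 2 lower in CGR8. Without untreated replicate A or C or 48 h replicate A or B the NIH/3T3 count at 48 h was 4 in all, and without untreated replicate A or B or 48 h replicate C the CGR8 count was 2. Slc36a1, the proton-coupled carrier of small amino acids, fell at 5 h in NIH/3T3 from 26.3 to 12.0 CPM and in CGR8 from 14.4 to 5.22 CPM. Slc38a7, a lysosomal glutamine carrier, fell from 52.3 to 15.8 CPM in CGR8 (-1.79 ± 0.15, adjusted p = 5.16e-07, edgeR), and Ctns, the cystine exporter, from 14.2 to 6.83 CPM. In NIH/3T3 Slc7a14 fell from 5.31 to 2.15 CPM and Mfsd12 from 12.6 to 7.17 CPM. The mitochondrial carriers were called in NIH/3T3 at a share like that of all genes (51.0%): 5 of 10 fell in NIH/3T3 at 5 h and none rose (2 or 3 were called with any 1 library of those groups left out), and in CGR8 1 rose and 5 fell. Slc25a22, a glutamate carrier, fell from 44.8 to 20.4 CPM in NIH/3T3 and from 31.3 to 11.4 CPM in CGR8. Sfxn3, a serine carrier relative, fell from 66.9 to 47.4 CPM in NIH/3T3 and from 5.72 to 2.68 CPM in CGR8, and smaller falls were seen for Sfxn2 in NIH/3T3 (-0.40 ± 0.13) and Slc25a44 in CGR8 (-0.47 ± 0.13).

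The genes that sense amino acids upstream of mTORC1 and GCN2 were called at 5 h in NIH/3T3 about as often as all genes, 9 of 16 beside 51.0%, with 2 higher and 7 lower and a median (-0.05) near that of all genes (-0.01). At 48 h in that line, 9 were higher and 0 lower (median 0.36). In CGR8, 2 were higher and 10 lower of 18 at 5 h (median -0.37), and 3 higher and 3 lower at 48 h (median 0.10), or 3 in all without untreated replicate C. Castor2, a relative of the arginine sensor, fell from 7.32 to 1.85 CPM at 5 h in NIH/3T3 (-1.95 ± 0.17, adjusted p = 3.46e-07, edgeR) and was above its start at 48 h (0.91 ± 0.14). Depdc5, a subunit of the GATOR1 brake on mTORC1, fell from 32.6 to 15.8 CPM in NIH/3T3 and from 63.6 to 30.4 CPM in CGR8. Wdr59, of the GATOR2 complex, fell from 25.6 to 15.6 CPM in NIH/3T3 and from 58.3 to 33.8 CPM in CGR8, and Rragd, a Rag GTPase, fell from 72.2 to 31.5 CPM in CGR8. Sesn3, named after its values were seen, rose at 48 h by 1.46 ± 0.12 in NIH/3T3 and 1.17 ± 0.16 in CGR8.

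The 6 NRF2 targets are set beside Slc7a11. At 5 h 5 fell and none rose in NIH/3T3 (median -0.72), where Slc7a11 was also lower, and 5 fell and 1 rose in CGR8 (median -0.89), where Slc7a11 stood at 0.16 ± 0.22. Hmox1, the haem oxygenase, fell from 75.1 to 17.1 CPM in NIH/3T3 (-2.10 ± 0.10, adjusted p = 6.77e-10, edgeR) and from 112 to 50.4 CPM in CGR8. Gclm, a subunit of the glutathione-building ligase, fell from 197 to 74.5 CPM in NIH/3T3 and from 105 to 53.2 CPM in CGR8. Txnrd1 fell in NIH/3T3 from 928 to 475 CPM, and Srxn1 in CGR8 from 30.1 to 12.7 CPM.

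**Figure D3:**
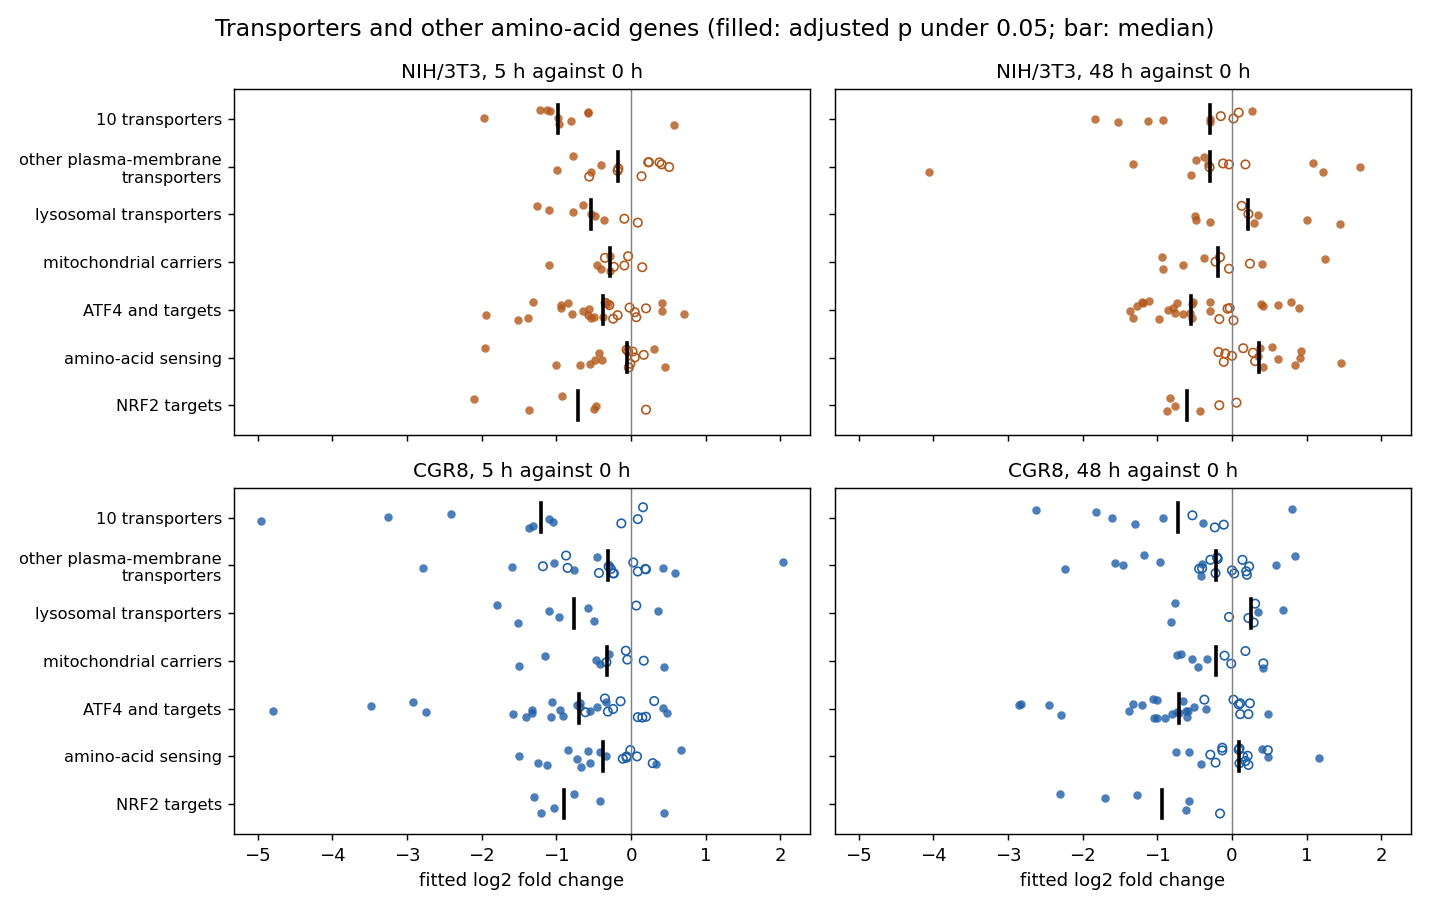
Fitted log2 fold change of each tested gene (points) for the 10 transporters and the 6 other lists at 5 h (left) and 48 h (right) in NIH/3T3 (top) and CGR8 (bottom), filled where the adjusted p was under 0.05, with a black bar at the list's median. At 5 h the bar of the 10 transporters is the leftmost in both lines (-0.97 and -1.21), a place that the choice of members helps to set, and at 48 h the sensing list sits to the right of 0 (0.36 and 0.10).

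The members did not share 1 time course. Each was set against the mean log2 CPM of the 10 over the 15 libraries of a line, a mean that includes the gene itself. Slc7a1 had the highest r of the 10 in both lines (0.927 in NIH/3T3 and 0.992 in CGR8). Slc3a2 had r = -0.199 in NIH/3T3 and 0.248 in CGR8, and Slc7a11 had -0.144 in CGR8. The mean also takes in members with few reads, Slc6a9 in CGR8 (1 to 3 reads a library at 5 h) and Slc7a3 in NIH/3T3 (mean of 0.665 CPM). Their part in the r values was not tested. Of the other genes, those most like this mean were Dgkd (r = 0.974), Rad54b (0.968) and E2f8 (0.968) in NIH/3T3, and Rab11fip4 (0.992), Ankrd33b (0.989) and Clic4 (0.988) in CGR8. These correlations describe 15 libraries in 5 time groups that share library and depth, and they carry no test. In bulk RNA, a change in the share of cells and a change of RNA per cell cannot be told apart.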

How the data were processed

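The authors deposited raw counts of reads per gene for 30 libraries, whole numbers with 57186 Ensembl identifiers. The submitters' processing notes name STAR, DESeq2 and GRCm39. The counting tool, its use of strand and the annotation release are not given in the sources used here. The library kit was a stranded one for mRNA, per the labels' protocols. Symbols came from GENCODE M21 (GRCm38) with the version suffix ignored, which matched 51880 identifiers (90.7%). Its exon lengths gave CPM per kb and its exon positions gave the overlaps of Slc6a9, and no gene coordinates from it are printed.

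Counts were fitted in R 4.3.3 with edgeR 4.0.16 (filterByExpr at min.count 10 and min.total.count 15, TMM, quasi-likelihood test, Benjamini-Hochberg over all genes tested, threshold 0.05), with 15 libraries per line (13941 genes in NIH/3T3, 15933 in CGR8) and all 30 for line differences (17549 genes). The scripts were tested on simulated data. The members and lists were chosen with earlier results of these data known. Besides the 10 members, the rule named in each list the 3 largest changes called at 5 h per line, where the higher group averaged 5 CPM or more. For likeness it took the 3 genes of highest r that averaged 10 CPM or more. Alternatives were RLE scaling, library size alone, no filter, a mean of at least 5 CPM, DESeq2 1.42.0, limma 3.58.1 voom, a replicate block, the compared groups alone, and each library left out. Replicate letters come from the labels, which do not say what they share. The correlation of same-letter deviations was over 0.1 in 7 of 30 pairs in NIH/3T3 and 13 of 30 in CGR8. Of the comparisons with 0 h, all 3 pairs passed only for NIH/3T3 at 1 h (0.161, 0.138 and 0.316). Depth limits low genes the most.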

Additional observations from a re-analysis of the deposited data

Results flagged for a closer look

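The change from 0 h was tested between the lines in 1 model of all 30 libraries, as CGR8 minus NIH/3T3 on the log2 scale, and the genes below passed its adjusted threshold in edgeR. For the 10 members the values are a description, since their changes were known when they were chosen. At 2 h the member was Slc38a2, at -1.07. At 5 h the differences were -2.03 for Slc1a4, -0.64 for Slc1a5, 1.47 for Slc7a11, -1.34 for Slc7a1, 1.92 for Slc7a3 and -3.79 for Slc6a9, the last 2 resting on few reads. At 48 h they were -2.50 for Slc1a4, 0.59 for Slc7a5, 1.29 for Slc7a11, -0.69 for Slc7a1, 0.51 for Slc38a2 and -1.85 for Slc6a9.

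Among genes of the other lists at 5 h, Chac1 had the largest difference in size, -4.16 (adjusted p = 9.21e-08, edgeR), from -0.54 in NIH/3T3 and -4.79 in CGR8. Its CGR8 mean at 5 h was 0.433 CPM, so the size of that fall rests on low counts. Atf4 differed by -1.69 (adjusted p = 2.34e-07, edgeR). Slc38a7 (-1.22), Slc6a6 (-1.10), Ctns (-0.93), Srxn1 (-0.72) and Sfxn3 (-0.60) were lowered more in CGR8, with adjusted p from 0.000141 to 0.0457 (edgeR). Slc43a1, at 1.23 (adjusted p = 0.00916, edgeR), was higher in CGR8 and stood at -0.56 in NIH/3T3. The NRF2 targets parted within their list: Hmox1 (0.98), Txnrd1 (0.61) and Gclm (0.43) fell less in CGR8, as did Ppp1r15a (0.69) and Slc38a10 (0.42), with adjusted p from 2.74e-05 to 0.039 (edgeR). With library size alone Txnrd1 (0.41), Gclm (0.23), Ppp1r15a (0.49) and Slc38a10 (0.22) did not pass, and with RLE scaling Gclm (0.34) and Slc38a10 (0.33) did not.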

How the results depend on the processing

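No member's called change switched direction in any alternative, and 1103 of 1112 alternative values of a member's log2 fold change stayed within 1 SD of its libraries. Of 580 alternative counts of calls, 545 stayed within 1.5 times the reported count. The exceptions follow, and their cause was not tested unless the setting itself tests fewer genes. Under voom with sample quality weights, 3 members were called at 1 h in NIH/3T3, 3 at 1 h in CGR8 and 1 for a line difference at 1 h. Under voom the other plasma-membrane transporters gave 2 in NIH/3T3 at 1 h, 9 at 5 h and 3 in CGR8 at 1 h, and the sensing list 10 in CGR8 at 48 h. DESeq2 called 1 member in NIH/3T3 at 1 h, and the fit with no filter called 1 in CGR8 at 1 h. The mitochondrial carriers called in NIH/3T3 at 5 h were 3 with RLE scaling, with no filter and with DESeq2. Other plasma-membrane transporters called were 8 in NIH/3T3 at 5 h with the compared groups alone. A mean of at least 5 CPM, which tests fewer genes, left 5 of them in NIH/3T3 at 48 h, 5 in CGR8 at 5 h and 5 in CGR8 at 48 h.

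With each library left out in turn, members called were 0 to 1 in NIH/3T3 at 1 h and 4 to 7 in CGR8 at 2 h. Other plasma-membrane transporters called were 2 to 5 in NIH/3T3 at 2 h, the low value without 2 h replicate C. Mitochondrial carriers were 2 to 3 in NIH/3T3 at 5 h and 3 to 5 in CGR8 at 48 h, lysosomal transporters 4 to 6 in NIH/3T3 and 2 to 4 in CGR8 at 48 h, and sensing genes 3 to 6 in CGR8 at 48 h. With a replicate block, members called at 1, 2, 5 and 48 h were 0, 7, 10 and 7 in NIH/3T3, and 0, 7, 7 and 6 in CGR8. The median correlation of same-letter deviations was 0.032 in NIH/3T3 and 0.04 in CGR8. NIH/3T3 at 0 h and 1 h was the one pair of groups compared with all 3 letters over 0.1, and there the block gave 0 members, as without it. The block moved no count by over 1.5 times. Depth limits Slc6a9 in CGR8 and Slc7a3 in NIH/3T3 the most.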
